A study of Mus musculus with 2 samples.

Results

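The genes described here are 8 transcription factors of the nephron lineage, Hnf4a, Pax2, Pax8, Sox4, Sox9, Esrrg, Tfap2b and Lhx1. They were taken by gene symbol, and all 8 were found among the 32285 genes counted. The counts come from scRNAseq of 2 mouse kidneys, 1 library from a control kidney and 1 library from a kidney subjected to ischemia/reperfusion (I/R). Both came from male wildtype C57BL/6J mice of 19 weeks. The control was the uninjured kidney of the opposite side, and the ischemic kidney had 27 min of ischemia and 24 h of reperfusion. Whether both kidneys came from a single mouse is not given in the labels. With 1 library per condition, library and condition cannot be told apart, and differences between them carry no replicate check.

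The nephron forms in the embryo from progenitors of the metanephric mesenchyme, and the collecting duct from the ureteric bud. Pax2 and Pax8, paired-box factors, and Lhx1, a LIM homeobox factor, act early in this process, and Pax8 is still found in mature tubules. Hnf4a is a nuclear receptor required for the mature proximal tubule (PT). Esrrg, an orphan nuclear receptor, drives genes of oxidative metabolism, and Tfap2b, an AP-2 family factor, is needed for the distal nephron. Sox4 and Sox9 are HMG-box factors of the developing nephron, and Sox9 is known to be switched on in tubule cells after I/R injury.

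After filtering, 12586 control and 13116 ischemia cells with 124679362 and 128733541 UMIs remained, at medians of 3839 and 2138.5 UMIs per cell. Of the cell barcodes of kept cells, 58 occurred in both libraries. Clustering gave 18 clusters, of which 15 took the names of 13 classes from their markers. The classes of nephron cells were PT, thin limb, thick ascending limb (TAL), distal convoluted and connecting tubule (DCT-CNT), collecting duct principal cells (CD-PC), collecting duct intercalated cells (CD-IC) and podocytes, and each is called "like" because its name rests on marker genes alone. Clusters 0, 1 and 4, with 10467, 2725 and 1580 cells, stayed unnamed. The nephron classes held between 58 (CD-IC-like) and 2204 (PT-like) control cells. Their marker lists were found in full in control, and also in ischemia except for thin limb (5 of 6 markers) and CD-IC (5 of 7). The DCT-CNT list summed to 18666 CPM in control CD-PC-like cells, above 15481 CPM in DCT-CNT-like cells. In ischemia the sums were 9200 and 9094 CPM, so this list did not part these classes cleanly. CD-IC-like cells were the cluster led by Slc26a4, and other intercalated cells fell with CD-PC-like cells.

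Levels are given as CPM, the UMIs of a gene summed over the cells of a class, divided by all UMIs of these cells and put on the usual CPM scale. Brackets hold exact Poisson 95% intervals of levels, or exact conditional intervals of ratios. All intervals cover counting error only and not the spread between mice. Macrophage-like cells, which should lack these genes, are given as a reference for free RNA in droplets. Such a level differed between the classes outside the nephron, as control Hnf4a ran from 21.8 CPM in macrophage-like to 65.8 CPM in neutrophil-like cells and control Lhx1 from 3.20 CPM in pericyte-like to 29.7 CPM in B cell-like cells, the latter from 5 UMIs. The median depth of macrophage-like cells was 5559.5 UMIs in control and 8647 in ischemia, against 26458 and 36023 in PT-like cells. Control Tfap2b was 11.2 CPM in macrophage-like and 1.15 CPM in PT-like cells. A level not above that of macrophage-like cells thus does not show that a gene was absent. A gene was counted in a class where it had at least 50 UMIs over both libraries, and called higher or lower where its ratio of ischemia to control was 2-fold or more.

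**Figure D1:**
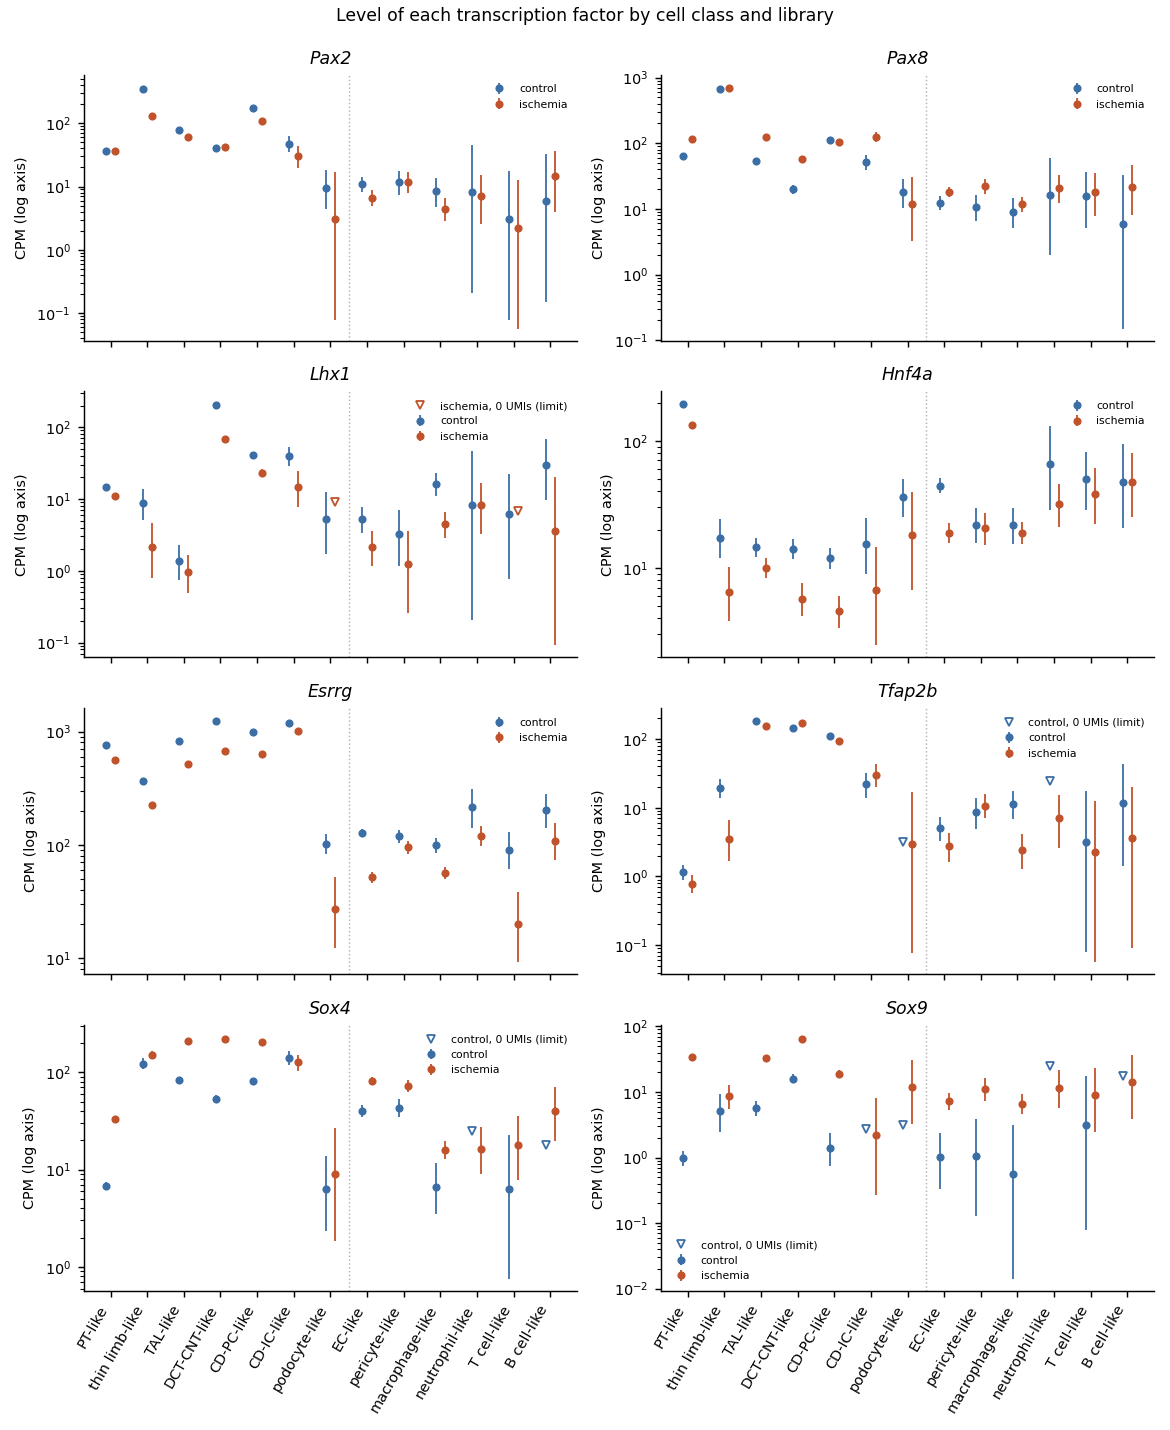
Level of each of the 8 genes (CPM, log axis) in the 13 named classes, with control in blue and ischemia in orange. Points are sums over the cells of 1 library, bars are exact Poisson 95% intervals, open triangles mark the limit of 3 counts where no UMI was found, and classes right of the dotted line are not nephron cells. In the control library Hnf4a was highest in PT-like cells at 193 CPM, Pax2 and Pax8 in thin limb-like cells at 352 and 676 CPM, and Lhx1 in DCT-CNT-like cells at 205 CPM.

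Pax2, which marks nephron progenitors and the ureteric bud in the embryo, was highest in thin limb-like cells. Its control level there was 352 CPM (326 to 379), followed by 175 CPM (166 to 183) in CD-PC-like and 77.6 CPM (72.3 to 83.1) in TAL-like cells. These 3 levels were apart beyond counting error, while CD-IC-like cells at 47.3 CPM (35.3 to 62.0) and DCT-CNT-like cells at 41.1 CPM (37.0 to 45.5) overlapped. PT-like cells followed at 36.6 CPM, and podocyte-like cells at 9.53 CPM were not above macrophage-like cells at 8.37 CPM. In the ischemia library, Pax2 in thin limb-like cells was 129 CPM (116 to 143), a ratio of 0.367 (0.323 to 0.418), and this was a call for lower. In CD-PC-like cells it was 109 CPM, a ratio of 0.622 (0.577 to 0.671), which did not reach 2-fold. PT-like cells stood at 36.5 CPM with a ratio of 0.998 (0.939 to 1.06), an interval that spans 1. The thin limb value rests on 102 control and 95 ischemia cells, and 5 cells held 27.6% of its control UMIs. When cells were assigned by counting marker UMIs cell by cell (a marker gate), its ratio was 0.7001, not a call. That gate also took injury markers of the PT, Spp1 among them, as marks of PT-like cells. Under that gate CD-PC-like cells led in both libraries, with 261 CPM (control) and 125 CPM (ischemia).

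Pax8, a relative of Pax2, had the same leading class. It was 676 CPM (640 to 713) in control thin limb-like cells and 696 CPM (666 to 728) in ischemia, with a ratio of 1.03 (0.960 to 1.11). With the marker gate these levels were 225 and 411 CPM. In contrast to Pax2, its interval in this class spans 1, and 5 cells held 39.6% of its UMIs there in control and 41.3% in ischemia. Behind it in the control library came CD-PC-like cells at 111 CPM (105 to 118), PT-like cells at 64.9 CPM (62.8 to 67.0) and TAL-like cells at 53.4 CPM (49.0 to 58.1), with the last overlapping CD-IC-like cells at 51.8 CPM. DCT-CNT-like cells were lowest of the tubule at 19.8 CPM (17.0 to 22.9), still above macrophage-like cells at 8.93 CPM (5.10 to 14.5). Pax8 was higher after ischemia where it had been low. The ratio was 2.89 (2.42 to 3.46) in DCT-CNT-like, 2.32 (2.11 to 2.57) in TAL-like and 2.42 (1.74 to 3.38) in CD-IC-like cells, all calls for higher. In PT-like cells it went from 64.9 to 116 CPM, a ratio of 1.79 (1.72 to 1.87) that fell short of 2-fold. In CD-PC-like cells it was 0.938 (0.862 to 1.02). Macrophage-like cells had 11.8 CPM of Pax8 in ischemia, a ratio of 1.32 (0.756 to 2.45). Pericyte-like cells went from 10.7 to 22.2 CPM, a ratio of 2.08 (1.22 to 3.67) that reached 2-fold. EC-like cells had a ratio of 1.46 (1.07 to 2.02), so Pax8 was also higher in classes outside the nephron. The TAL-like ratio was 1.48 with a limit of 25% mitochondrial UMIs. It was 1.30 without integration of the libraries, where that class held only 12 ischemia cells, and neither ratio is a call. In CD-IC-like cells it was between 1.53 and 1.97 under 4 of the alternatives. Among these, with at least 1000 UMIs per cell, that class held 231 control and 163 ischemia cells, against 58 and 45 here.

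Lhx1, needed for the first epithelial steps of the nephron, was concentrated in DCT-CNT-like cells. Its control level there was 205 CPM (196 to 215). CD-PC-like cells at 40.8 CPM (36.9 to 45.1) and CD-IC-like cells at 40.0 CPM (29.1 to 53.7) overlapped each other. PT-like cells had 14.9 CPM (13.9 to 15.9), against 16.2 CPM (10.8 to 23.2) in macrophage-like, 5.21 CPM (3.41 to 7.64) in EC-like and 1.36 CPM (0.746 to 2.29) in TAL-like cells. The PT-like level was thus above some of these classes, TAL-like cells among them, and not above the shallower macrophage-like cells. The part of free RNA in it was not tested, and no expression is read from it. After ischemia, Lhx1 in DCT-CNT-like cells was 67.4 CPM (61.8 to 73.5), a ratio of 0.329 (0.298 to 0.363) and a call for lower. It was lower than 1 in all 4 classes counted, with 0.567 (0.482 to 0.666) in CD-PC-like and 0.363 (0.180 to 0.687) in CD-IC-like cells. In macrophage-like cells Lhx1 went from 16.2 to 4.43 CPM. Cells with a UMI of Lhx1, after each cell was thinned to 1000 UMIs, made up 18.2% (14.8 to 22.1) of control and 5.08% (3.04 to 7.92) of ischemia DCT-CNT-like cells, against 1.06% and 0.177% of macrophage-like cells. Before thinning these shares were 77.9% and 50.3% of DCT-CNT-like cells, and 4.86% and 2.78% of macrophage-like cells.

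Hnf4a was a gene of PT-like cells. Its level there was 193 CPM (190 to 197) in the control library, while the 5 other tubule classes lay between 11.96 and 17.3 CPM and podocyte-like cells at 36.0 CPM (24.9 to 50.3). Macrophage-like cells had 21.8 CPM (15.5 to 29.7) and endothelial cell (EC)-like cells 44.3 CPM (38.7 to 50.6). No tubule class other than PT was thus above macrophage-like cells, and the calls for lower Hnf4a in thin limb-like, DCT-CNT-like and CD-PC-like cells concern levels under theirs. In DCT-CNT-like cells that call was lost under 3 alternatives, with ratios from 0.507 to 0.663. The highest was without integration, where that class was a shallower cluster. As the mean of each cell's CPM it was also lost in thin limb-like (0.580) and CD-PC-like cells (0.538). In PT-like cells Hnf4a was 133 CPM (130 to 136) after ischemia, with a ratio of 0.690 (0.670 to 0.710), lower but not 2-fold. Thinned to 1000 UMIs, 17.5% (16.0 to 19.2) of control and 13.3% (11.8 to 15.004) of ischemia PT-like cells had an Hnf4a UMI, against 3.19% and 1.94% of macrophage-like cells. At full depth, with medians of 26458 and 36023 UMIs in PT-like cells, the shares were 88.5% and 81.9%, against 12.2% and 10.8% of macrophage-like cells. Most UMIs of the gene, 72.7% in control and 74.4% in ischemia, came from PT-like cells.

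Esrrg was found in every tubule class. The control level was 1238 CPM (1215 to 1261) in DCT-CNT-like and 1179 CPM (1116 to 1245) in CD-IC-like cells, which overlapped, and 986 CPM (966 to 1006) in CD-PC-like, 827 CPM (809 to 845) in TAL-like and 758 CPM (751 to 765) in PT-like cells, each apart from its neighbours. Thin limb-like cells had the lowest tubule level, 362 CPM (336 to 390), and podocyte-like cells at 103 CPM (83.3 to 125) were not above macrophage-like cells at 98.8 CPM (84.7 to 114). After ischemia Esrrg was lower in all 7 nephron classes counted, with ratios between 0.545 (0.528 to 0.564) in DCT-CNT-like and 0.854 (0.784 to 0.931) in CD-IC-like cells among the tubule classes. The DCT-CNT-like ratio was 0.364 to 0.494 under 3 of the alternatives, which would be calls. The lowest was without integration, where that class was a shallower cluster. In TAL-like cells the ratio was 0.627 (0.607 to 0.648), and without integration it was 1.05, on the other side of 1. Without integration the TAL-like class held 799 control but only 12 ischemia cells. A cluster whose best marker list was that of TAL, with 33 control and 487 ischemia cells, stayed unnamed there. Only the podocyte-like value, 0.264 (0.117 to 0.523), was a call, and it rests on 97 control and 9 ischemia UMIs at the level of macrophage-like cells. With the marker gate it was 1.04. Macrophage-like cells went from 98.8 to 56.5 CPM, and EC-like cells from 128 to 51.6 CPM. CD-IC-like cells led in the ischemia library at 1008 CPM (943 to 1076), with DCT-CNT-like cells at 675 CPM (657 to 694). In control DCT-CNT-like cells led under only 4 of 9 alternatives, and CD-IC-like cells led under the others. In ischemia CD-IC-like cells led under 8 of 9. With the limit of 25% mitochondrial UMIs, where no cluster was named CD-IC, CD-PC-like cells led.

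Tfap2b was a gene of the loop and the distal nephron. The control level was 180.1 CPM (172 to 188) in TAL-like, 145 CPM (137 to 153) in DCT-CNT-like and 111 CPM (105 to 118) in CD-PC-like cells, all apart. PT-like cells had 1.15 CPM (0.893 to 1.47) and podocyte-like cells 0 of 944571 UMIs, which allows up to 3.18 CPM. Macrophage-like cells had 11.2 CPM (6.82 to 17.2) in control, above PT-like cells, and 2.40 CPM in ischemia. Control CD-IC-like cells at 21.8 CPM (14.0 to 32.4) and thin limb-like cells at 19.3 CPM (13.7 to 26.5) overlapped macrophage-like cells. Of the 8 genes Tfap2b was the only one with no call in any of its 5 classes counted. Its ratio was 0.863 (0.810 to 0.920) in TAL-like, 1.17 (1.08 to 1.26) in DCT-CNT-like and 0.843 (0.773 to 0.920) in CD-PC-like cells. TAL-like and DCT-CNT-like cells thereby changed places, at 155 CPM (149 to 162) and 169 CPM (160.4 to 179), and their intervals overlapped in the ischemia library. TAL-like cells still led there at 172 CPM with the limit of 25% mitochondrial UMIs. Without integration they led at 215 CPM, from only 12 ischemia cells.

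Sox4 had a broad pattern in the control library. It was 139.9 CPM (119 to 164) in CD-IC-like and 122 CPM (107 to 139) in thin limb-like cells, which overlapped. TAL-like and CD-PC-like cells followed at 83.9 CPM (78.4 to 89.7) and 80.8 CPM (75.2 to 86.8), also overlapping, and DCT-CNT-like cells at 53.6 CPM (48.9 to 58.6). PT-like cells, at 6.79 CPM (6.13 to 7.50), were not above macrophage-like cells at 6.70 CPM (3.46 to 11.7). After ischemia Sox4 was called higher in 4 of 6 nephron classes counted. It reached 33.0 CPM (31.5 to 34.5) in PT-like cells, a ratio of 4.86 (4.36 to 5.44). It reached 220.4 CPM (210.1 to 231) in DCT-CNT-like cells, a ratio of 4.11 (3.71 to 4.56). TAL-like cells had 211 CPM (204 to 219.7) and CD-PC-like cells 203 CPM (195 to 212), with ratios of 2.52 (2.33 to 2.73) and 2.51 (2.31 to 2.73). The levels of these last 3 classes overlapped, each with its neighbour, in the ischemia library. Thin limb-like cells, at 149 CPM, had a ratio of 1.22 (1.04 to 1.44), and CD-IC-like cells, at 126 CPM, had 0.902 (0.701 to 1.16). These last 2 classes, which had the highest control levels, had the ratios nearest to 1. The CD-IC-like ratio of Sox4 was between 1.39 and 1.92 under 4 of the alternatives, and the thin limb-like ratio was 2.76 with the marker gate. Among these, with at least 1000 UMIs per cell, the CD-IC-like class held 231 control and 163 ischemia cells, against 58 and 45 here. The class was thus a wider set of cells there. Macrophage-like cells went from 6.70 to 15.9 CPM and EC-like cells from 40.3 to 82.1 CPM. In TAL-like cells the ratio was 1.94 with the limit of 25% mitochondrial UMIs. It was 1.54 without integration, where that class held only 12 ischemia cells, and neither ratio is a call.

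Sox9 was near absent from the control library, with 346 UMIs in all kept cells against 3760 in the ischemia library. DCT-CNT-like cells led in control at 16.0 CPM (13.5 to 18.8), followed by TAL-like cells at 5.65 CPM (4.29 to 7.31) and thin limb-like cells at 5.09 CPM (2.44 to 9.36). PT-like cells held 0.980 CPM (0.740 to 1.27) and macrophage-like cells 0.558 CPM (0.0141 to 3.11), so control PT-like cells were not above macrophage-like cells. In ischemia PT-like cells Sox9 was 34.5 CPM (33.0 to 36.1), a ratio of 35.2 (27.0 to 46.8) from 56 to 1984 UMIs. The ratio was 13.7 (7.84 to 26.2) in CD-PC-like, 5.91 (4.49 to 7.92) in TAL-like and 3.98 (3.30 to 4.83) in DCT-CNT-like cells, so all 4 classes counted were calls for higher. DCT-CNT-like cells had the highest level, 63.7 CPM (58.2 to 69.6), but PT-like cells led without integration at 34.6 CPM and TAL-like cells with the marker gate at 46.1 CPM. PT-like cells and TAL-like cells, at 33.4 CPM (30.3 to 36.8), overlapped, and CD-PC-like cells had 18.9 CPM (16.4 to 21.6). Macrophage-like cells had 6.65 CPM (4.66 to 9.20) of Sox9 in the ischemia library, 36 UMIs against 1 in control. Thinned to 1000 UMIs, 2.93% (2.19 to 3.83) of ischemia and 0.137% (0.0283 to 0.401) of control PT-like cells had a Sox9 UMI, against 0.353% (0.0428 to 1.27) and 0% (0 to 1.30) of macrophage-like cells. At full depth 32.7% of ischemia and 1.23% of control PT-like cells had a UMI, against 3.82% and 0.347% of macrophage-like cells. In control PT-like cells, 5 cells held 41.1% of the UMIs. Over the alternatives the PT-like ratio ran from 20.3 to 56.1. In DCT-CNT-like cells it was 1.83 without integration, not a call. That class was then a shallower cluster, at a control median of 3744.5 UMIs against 19276 in the class used.

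**Figure D2:**
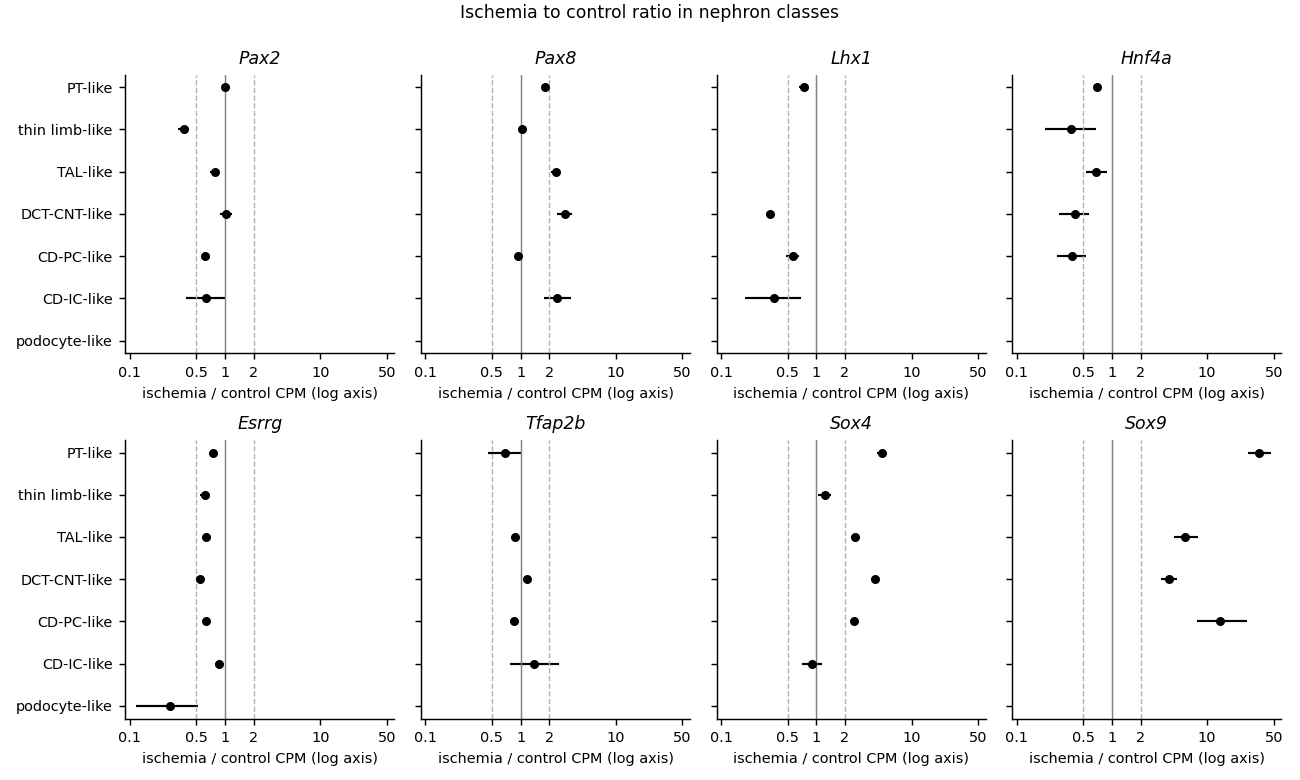
Ratio of ischemia to control CPM (log axis) of each gene in the 7 nephron classes, where at least 50 UMIs were counted. Points are ratios, bars are exact conditional 95% intervals of counting error, the solid line is a ratio of 1 and the dashed lines are 2-fold either way. Sox9 lay right of the 2-fold line in all 4 classes shown, from 3.98 to 35.2, while Esrrg, Hnf4a and Lhx1 lay left of 1 in every class shown.

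In PT-like cells, 2 of 8 genes counted (Sox4 and Sox9) were called higher and 0 lower, against 6.73% and 3.86% of all genes counted there. In TAL-like cells 3 of 7 (Pax8, Sox4 and Sox9) were called higher and 0 lower, against 7.86% and 7.62%. DCT-CNT-like cells had the most calls, with 3 of 8 higher (Pax8, Sox4 and Sox9) and 2 lower (Hnf4a and Lhx1), against 6.33% and 4.93%. In CD-PC-like cells 2 of 8 were higher (Sox4 and Sox9) and 1 lower (Hnf4a), against 5.84% and 4.5%. In CD-IC-like cells 1 of 6 was higher (Pax8) and 1 lower (Lhx1), against 5.73% and 3.95%. The Lhx1 call in CD-IC-like cells was lost under 3 alternatives, with ratios from 0.5001 to 0.538. Among these, with at least 1000 UMIs per cell and without integration, that class was a wider set of cells. Thin limb-like cells had 0 of 5 higher and 2 lower (Hnf4a and Pax2), against 3.82% and 6.62%. Every Hnf4a call counted here concerns levels under those of macrophage-like cells, and each was lost under some alternative. For podocyte-like cells only Esrrg was counted and was lower, against 0.883% of all genes higher and 2.45% lower. The shares of members higher in PT-like, TAL-like, DCT-CNT-like and CD-PC-like cells were above those of all genes, and they came from the same 3 genes. Members and classes share libraries, so these counts are not independent of each other. The members were chosen with earlier results of these data known, so a share above that of all genes is a description and no test. The median ratio over all genes counted lay between 0.9904 and 1.07 in these 7 classes. Divided by the median of its class, 7 of 43 ratios followed moved by more than their counting interval and 42 of 43 stayed on the same side of 1. Mitochondrial UMIs, a sign of RNA quality, were 26.8% of all UMIs in control and 22.4% in ischemia PT-like cells, and 31.9% and 25.9% in TAL-like cells. With these UMIs left out of the totals, all 43 ratios followed stayed on the same side of 1.

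Promoters of 7 members were found in the RefSeq table (GRCm38.p6), as 13 windows of the 250 bases before a transcription start, and Sox9 was not among them. They are shown for Sox4 and Pax8, which were higher in several classes. Capitals mark matches on either strand to 1 of 4 short motifs: the AP-1 motif (TGACTCA), the CCAAT box (CCAAT), the TATA box (TATAAA) and an E-box (CACGTG).
Sox4 promoter (chr13:28953700-28953949, minus strand): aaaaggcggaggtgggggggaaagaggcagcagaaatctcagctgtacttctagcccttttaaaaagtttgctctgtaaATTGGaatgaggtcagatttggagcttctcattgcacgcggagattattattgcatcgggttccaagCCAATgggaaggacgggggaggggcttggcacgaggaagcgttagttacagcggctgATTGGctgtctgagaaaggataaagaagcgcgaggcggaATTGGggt
Pax8 promoter (chr2:24475600-24475849, minus strand): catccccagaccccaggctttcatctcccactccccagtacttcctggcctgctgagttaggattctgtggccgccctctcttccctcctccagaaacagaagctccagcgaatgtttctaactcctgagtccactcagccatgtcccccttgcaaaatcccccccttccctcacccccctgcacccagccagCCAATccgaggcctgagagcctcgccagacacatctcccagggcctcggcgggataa
The Sox4 promoter held 4 CCAAT boxes and the Pax8 promoter 1. Of all 32851 promoters in the table, 33.8% held the CCAAT box, 4.46% the AP-1 motif, 12.4% the TATA box and 6.02% the E-box. No 2 matches shared a base in these 2 windows, and a match says only that these letters are there. Counts from the 3' ends of transcripts do not tell promoters apart.

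PT-like cells were made of clusters 2 and 5, which differed by known segment genes. In the control library Slc5a2 and Slc5a12, transporters of the early PT, were 563 and 1537 CPM in cluster 2 against 157 and 467 CPM in cluster 5. Slc7a13 and Cyp7b1, genes of the late straight PT, were 10.5 and 0.704 CPM in cluster 2 against 176 and 17.6 CPM in cluster 5. In ischemia Slc5a2 and Slc5a12 were 411 and 725 CPM in cluster 2 against 77.7 and 139 CPM in cluster 5. Slc7a13 was 1.79 against 38.9 CPM there. Cyp7b1 no longer parted the clusters in ischemia, at 0.547 CPM (0.329 to 0.854) against 0.308 CPM (0.124 to 0.634). Sox4 and Sox9 divided between these clusters in opposite ways after ischemia. Sox4 was 50.6 CPM (48.2 to 53.0) in cluster 2 and 6.24 CPM (5.25 to 7.35) in cluster 5. The latter was under the 15.9 CPM of macrophage-like cells, which were shallower, at a median of 8647 against 44212 UMIs. Sox9 was 24.2 CPM (22.6 to 25.9) in cluster 2 and 50.3 CPM (47.4 to 53.3) in cluster 5. In control Sox4 was already 10.6 CPM (9.58 to 11.8) against 1.08 CPM (0.702 to 1.60), and Sox9 was 0.939 CPM (0.642 to 1.33) against 1.04 CPM (0.667 to 1.55), which overlapped. Sox4 was thus higher after ischemia in both clusters. Havcr1, which encodes kidney injury molecule 1, was 243 CPM in cluster 2 and 746 CPM in cluster 5 after ischemia. Hnf4a was higher in cluster 5 in both libraries, at 218.5 against 176 CPM in control and 139.9 against 129 CPM in ischemia, and it was lower after ischemia in both clusters.

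**Figure D3:**
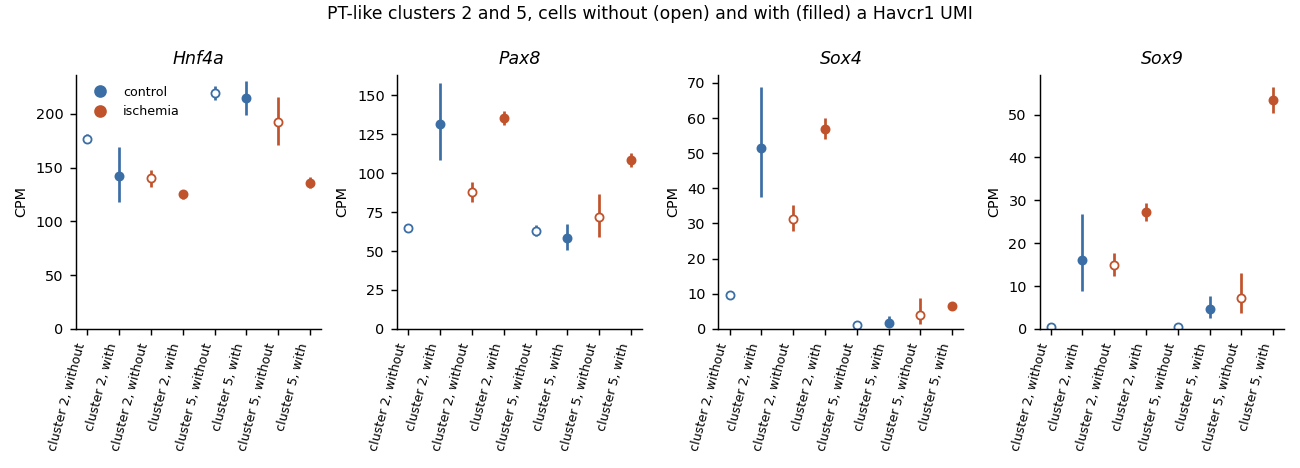
Level (CPM, linear axis from 0) of Hnf4a, Pax8, Sox4 and Sox9 in PT-like clusters 2 and 5, in cells with (filled) and without (open) a Havcr1 UMI at full depth, with control in blue and ischemia in orange. Bars are exact Poisson 95% intervals. In ischemia cluster 5, Sox9 was 53.3 CPM in cells with and 7.31 CPM in cells without Havcr1, while Sox4 lay under 10 CPM in both.

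Among PT-like cells of the ischemic kidney, 1307 had a Havcr1 UMI at full depth and 447 had none. Sox9 was 39.0 CPM (37.2 to 40.8) in the former and 13.8 CPM (11.6 to 16.2) in the latter, and Pax8 was 123 CPM (120.0 to 126) against 85.5 CPM (80.0 to 91.4). These cells were divided unevenly between the clusters, since cluster 5 held 499 of the 1307 cells with and 45 of the 447 without Havcr1. Within cluster 2, Sox9 was 27.2 CPM (25.3 to 29.3) with and 14.9 CPM (12.4 to 17.7) without Havcr1, and within cluster 5 53.3 CPM (50.3 to 56.5) and 7.31 CPM (3.65 to 13.1). Over both clusters Hnf4a went the other way, at 130 CPM (127 to 133) with and 148 CPM (140.4 to 155) without Havcr1. The cells with Havcr1 were deeper, at a median of 39817 against 20251 UMIs. After thinning to 1000 UMIs, 3.02% (1.62 to 5.11) of 430 cells with Havcr1 and 2.90% (2.06 to 3.95) of 1312 cells without it had a Sox9 UMI. Havcr1 was read after thinning as well, so many of these 1312 cells had it at full depth, where only 447 had none. After thinning a difference was not detectable for Sox9, and this split cannot check the one at full depth. For Pax8 the thinned shares were 19.5% (15.9 to 23.6) and 11.1% (9.48 to 13.0), which did not overlap, and for Hnf4a 11.2% (8.35 to 14.5) and 14.0% (12.2 to 16.0), which did. Havcr1 itself was found at 61.7 CPM in ischemia macrophage-like cells against 2.23 CPM in control, and the part of free RNA in the split by Havcr1 was not tested. Its level in PT-like cells went from 7.49 to 442 CPM.

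CD-PC-like cells at the resolution used held intercalated cells as well, since Aqp6, a marker of the latter, was among their 10 leading genes. At resolution 0.6 these formed a cluster of their own with 99 control and 87 ischemia cells, beside CD-PC-like cells with 353 and 306. Sox4 was 127 CPM (107 to 149.8) in control and 227 CPM (202 to 254) in ischemia cells of that intercalated cluster. The other intercalated cluster, led by Slc26a4, had 139.9 and 126 CPM, so the intercalated clusters, taken at different resolutions, overlapped in control and not in ischemia. Tfap2b separated these CD-PC-like cells from that intercalated cluster, at 123 CPM (115 to 131) against 14.7 CPM (8.40 to 23.9) in control. Lhx1 was 43.7 CPM (39.3 to 48.4) in the principal cells against 11.02 CPM (5.70 to 19.3) in that intercalated cluster.

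The UMIs of each gene were spread over the classes in different ways. Cells of the PT-like class held 55.3% of Esrrg, 49.3% of Pax8 and 34.3% of Pax2 UMIs in the control library, as they are the most numerous named cells and the deepest. Of all UMIs, PT-like cells held 57148370 of 124679362 in control and 57487864 of 128733541 in ischemia, so these shares alone do not show enrichment. They held 16.2% of the Sox9 UMIs in control and 52.8% in ischemia. For Lhx1 the share of DCT-CNT-like cells was 48.5% in control and 30.5% in ischemia. For Tfap2b, TAL-like cells held 37.4% and 40.4%.

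**Figure D4:**
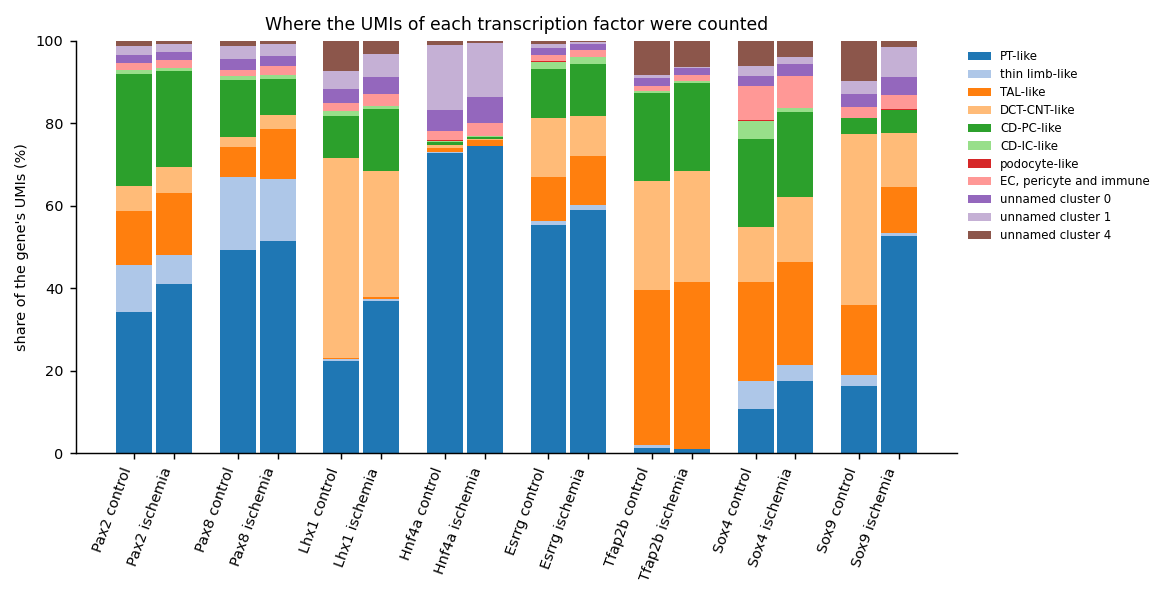
Share (%, linear axis from 0 to 100) of each gene's UMIs that came from each class or unnamed cluster, with a bar for each gene and library. The PT-like part of Sox9 was 16.2% in control and 52.8% in ischemia, while that of Hnf4a was 72.7% and 74.4%.

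The members lie on 5 chromosomes in the mouse genome (GRCm38, GENCODE M21), and all are protein-coding. Hnf4a (ENSMUSG00000017950) is at chr2:163506808-163572910 on the plus strand and Pax8 (ENSMUSG00000026976) at chr2:24420560-24475599 on the minus strand. Esrrg (ENSMUSG00000026610) is at chr1:187608791-188214885 and Tfap2b (ENSMUSG00000025927) at chr1:19208914-19238576, both on the plus strand. Sox9 (ENSMUSG00000000567) is at chr11:112782224-112787760 on the plus and Lhx1 (ENSMUSG00000018698) at chr11:84518284-84525535 on the minus strand. Pax2 (ENSMUSG00000004231) is at chr19:44756045-44837871 on the plus and Sox4 (ENSMUSG00000076431) at chr13:28948919-28953713 on the minus strand. Esrrg spans 606095 bases and Sox4 4795, and long genes give more intronic sequence to count where introns are counted, a setting not given in the sources used here. Antisense genes listed in the same counts overlap Hnf4a (Hnf4aos), Pax2 (Gm20395 and 1700039E22Rik) and Esrrg (Gm36388 and 9330162B11Rik), and Gm13415 overlaps Pax8 on the other strand. Whether reads were counted by strand is not given, so reads of these pairs may not be told apart.

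The unnamed clusters held the same genes at other levels. Cluster 1, whose best marker list was that of PT, had Hnf4a at 164 CPM (158 to 171) in control and 126 CPM (119 to 133) in ischemia, against 193 and 133 CPM in PT-like cells. Its Esrrg was 53.7 CPM (49.99 to 57.6) in control, against 758 CPM in PT-like cells, and its Pax8 was 16.9 CPM (14.9 to 19.2) against 64.9 CPM. Malat1, a nuclear RNA, was 1780 CPM in control cells of cluster 1 and 27681 CPM in PT-like cells, and its part in the differences between these clusters was not tested. Sox9 in cluster 1 went from 0.754 CPM (0.376 to 1.35) to 25.5 CPM (22.5 to 28.7). Esrrg and Pax8 thus differed between PT-like cells and cluster 1 far more than Hnf4a did.

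Other transcription factors of the nephron were taken as panels. Hnf4a had a log2 ratio of -0.54 in PT-like cells, against a median of 0.09 over all genes counted there. Among other factors of the proximal nephron, the ratio in PT-like cells was 0.740 (0.706 to 0.776) for Hnf4g, 0.660 (0.650 to 0.671) for Maf, 0.779 (0.757 to 0.801) for Nr1h4 and 0.623 (0.601 to 0.646) for Ppara, with no call among these 4. Outside PT-like cells, where their control levels were lower, calls for lower were made for Hnf4g, Maf and Ppara in DCT-CNT-like cells, Ppara in TAL-like, Nr1h4 in CD-PC-like and Maf in podocyte-like cells. Hnf4g in control DCT-CNT-like cells, at 6.88 CPM (5.28 to 8.82), overlapped macrophage-like cells at 4.46 CPM (1.93 to 8.80), and Nr1h4 in CD-PC-like cells, at 9.84 CPM (7.94 to 12.1), was under their 29.0 CPM (21.7 to 38.0). For the loop and distal panel (Pou3f3, Irx1, Irx2, Irx3, Esrrb, Esrra, Tfap2a, Sim1 and Sox6), 2 of 8 counted were lower in TAL-like cells, against 7.62% of all genes counted (median -0.59 against 0.10). These were Esrrb at 0.265 (0.228 to 0.306) and Esrra at 0.275 (0.234 to 0.323), both relatives of Esrrg, and both were also lower in DCT-CNT-like cells. Irx1 was 0.0890 (0.0316 to 0.204) in PT-like and Sox6 0.460 in thin limb-like cells. Esrrb was also called lower in PT-like and CD-PC-like cells, and Esrra and Irx1 in thin limb-like cells.

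For the collecting duct panel (Gata3, Gata2, Tfcp2l1, Foxi1, Grhl2, Elf5, Ehf and Emx1), 0 of 8 were called in CD-PC-like cells, against 5.84% of all genes higher and 4.5% lower (median -0.17 against -0.01). In DCT-CNT-like cells Ehf was higher at 7.43 (4.85 to 11.8) and Emx1 lower at 0.323 (0.291 to 0.358), and Tfcp2l1 was 0.445 (0.361 to 0.547) in thin limb-like cells. Among factors of nephron progenitors, Sox11, a close relative of Sox4, was 2.39 (1.38 to 4.34) in TAL-like cells, Emx2 2.28 (1.75 to 2.99) in DCT-CNT-like and Osr2 0.459 (0.384 to 0.547) in thin limb-like cells. For the injury genes, 8 of 10 were higher in PT-like cells, against 6.73% of all genes counted (median 2.56 against 0.09), such as Havcr1 at 59.1 (53.7 to 65.1), Krt20 at 47.4 (28.1 to 87.2) and Vim at 12.001 (9.59 to 15.2). These genes were listed as injury genes with earlier results of these data known. A share above that of all genes was thus set by the choice of list and is no test. Lcn2, which encodes NGAL, was 47.9 (44.0 to 52.3) in DCT-CNT-like cells.

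The genes whose pattern was most like each member were named by Pearson correlation of log2(CPM + 1) over 22 groups of a class and a library, among 14315 genes. The groups of a library share depth and free RNA, so the correlations are descriptions. For Hnf4a they included Ugt2b38 (r of 0.974) and Cyp2j5 (0.973). For Pax2 they were Rgl3, Emx2os and Elovl7 (0.922 to 0.966), and for Pax8 Myo5b, Nek5 and Gm49980 (0.902 to 0.943). For Sox4 they were Daam1, Hoxb6 and Ppp1r26 (0.904 to 0.918). For Sox9 they were Spp1, Il1f6 and Plpp2, with lower values (0.749 to 0.833). For Esrrg they were 2610528J11Rik, Dnah7b and Ank3 (0.938 to 0.948), for Tfap2b Wfdc2, Ephb3 and Gm13832 (0.927 to 0.936), and for Lhx1 Emx1, Gm17634 and Gm11127 (0.837 to 0.871). Between the members themselves Pax2 and Pax8 were most alike (0.867), and Hnf4a and Sox4 least (-0.691).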

How the data were processed

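scRNAseq (10x Genomics, 3' chemistry) was done on 1 control and 1 ischemic kidney. Per the labels, the authors aligned reads to mm10 and counted with Cell Ranger 7.0.0. The deposited values are UMI counts per gene and cell, not normalized, and whether introns or strand were used is not given in the sources used here. Kept were 25702 of 30367 barcodes, those that reached 200 genes, held from 500 up to 150000 UMIs and had no more than 55% of UMIs from mitochondrial genes. Libraries were integrated and clustered in Seurat 5.3.0 (R 4.3.3, Matrix 1.6.5) with 2000 variable genes, which held neither the 8 genes nor the transcription factor panels, 30 principal components, resolution 0.3 and seed 42. The injury genes were not kept out of the variable genes. A cluster took the name of its highest marker list where at least 3 markers had 10 UMIs or more and its 10 leading genes held a marker of that list and fewer of any other. Scrublet (scanpy 1.11.5) called 0 of 12586 and 0 of 13116 cells doublets, so it did not work and no doublets were removed.

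Counts were summed per class and library (Python 3.11.15, numpy 2.4.6, scipy 1.17.1, pandas 2.3.3, matplotlib 3.10.9). No test was made with 1 library per condition, and intervals are exact at 95%. On Poisson counts simulated from the sums of control PT-like cells, 95.28% of intervals over 11996 genes held the true ratio. Such counts lack the uneven spread of UMIs over cells, so this checks only how the intervals were computed. Shares of cells were compared after thinning to 1000 UMIs, which left out shallower cells. The genes and lists were chosen with earlier results of these data known. Named panel genes are those called in a class. Some genes, and the panel counts and motif that involve them, are not reported here.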

Additional observations from a re-analysis of the deposited data

Results flagged for a closer look

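Sox4 and Sox9 were also higher after ischemia in the unnamed clusters, which enter no comparison of named classes. In cluster 0 the ratio of ischemia to control was 3.38 (2.68 to 4.31) for Sox4 and 15.5 (8.46 to 31.7) for Sox9. In cluster 1 it was 2.99 (2.28 to 3.95) for Sox4 and 33.8 (18.6 to 68.4) for Sox9. In cluster 4 it was 2.75 (2.34 to 3.25) for Sox4 and 2.51 (1.62 to 3.95) for Sox9. Clusters 0 and 1 each had only 11 control UMIs of Sox9. Cells of cluster 0 were shallow, at medians of 895 UMIs in control and 797 in ischemia. The part of free RNA in these ratios was not tested. Tfap2b had a ratio of 1.17 in DCT-CNT-like and 0.843 in CD-PC-like cells, on opposite sides of 1, and this difference was not tested.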

How the results depend on the processing

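For 43 ratios of a gene in a class, 459 values were computed under alternatives, and 439 lay on the same side of 1 as the value reported. Of 18 calls, 8 held in every alternative, 21 values lost a call and 13 gained one. Causes were not tested. With a limit of 25% mitochondrial UMIs, the ratio was 0.654 for Hnf4a in PT-like and 0.418 for Esrrg in DCT-CNT-like cells. With at least 1000 UMIs per cell it was 0.494 for Esrrg in DCT-CNT-like and 1.69 for Sox4 in CD-IC-like cells. The CD-IC-like class then held 231 control and 163 ischemia cells, against 58 and 45 in the class used. Without integration it was 1.69 for Sox4 in CD-IC-like cells and 1.30 for Tfap2b in TAL-like cells, the latter with only 12 ischemia cells. In DCT-CNT-like cells it was then 1.82 for Sox9, 0.364 for Esrrg and 0.172 for Lhx1. That class was then a shallower cluster, at a control median of 3744.5 UMIs against 19276 in the class used. A deeper cluster whose best marker list was that of DCT-CNT, with 761 control and 630 ischemia cells, stayed unnamed there. At resolution 0.6 it was 1.39 for Sox4 in CD-IC-like and 0.575 for Esrrg in DCT-CNT-like cells. With the gate on marker UMIs it was 0.599 for Hnf4a in PT-like cells, 0.7001 for Pax2 and 1.83 for Pax8 in thin limb-like cells, 1.92 for Sox4 in CD-IC-like cells, 2.49 for Sox9 and 0.776 for Esrrg in DCT-CNT-like cells, and 0.925 for Tfap2b in TAL-like cells. The gate turned Esrrg in podocyte-like cells to 1.04 and gave 10.5 for Tfap2b in PT-like cells, against 0.678. The gate counted cells led by injury markers of the PT as PT-like. In ischemia these markers summed to 71536 CPM in TAL-like, 43702 CPM in DCT-CNT-like and 18623 CPM in PT-like cells. The gate may thus place ischemia cells of other tubule classes among PT-like cells, and this was not tested. As the mean of each cell's CPM the ratio was 1.15 for Pax8 in thin limb-like, 0.526 for Esrrg in DCT-CNT-like and 0.780 for Tfap2b in TAL-like cells. Without mitochondrial UMIs in the totals it was 0.650 for Hnf4a in PT-like and 0.794 for Tfap2b in TAL-like cells. Divided by the median ratio of the class it was 0.646 for Hnf4a in PT-like, 0.516 for Esrrg in DCT-CNT-like and 0.808 for Tfap2b in TAL-like cells. Dropping the top 8% of each library by doublet score, chosen after seeing the data since no doublet was called, moved 0 of 43 ratios. No paired analysis was possible because there is 1 library per condition and no test. Depth limits Sox9 in control, where CD-IC-like and podocyte-like cells held 0 UMIs.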
